A study of Mus musculus with 36 samples.

Results

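Among the 18 spleens of arthritic mice, arrays 1 to 9 (the first arthritic set) were compared with arrays 10 to 18 (the second arthritic set) across all genes, as 18 of the 36 arrays of the study. The sets are runs of the array numbers in the labels, and they were chosen by the measured values of the hybridisation spike-in controls, bacterial transcripts added to every sample before hybridisation, and with gene differences between them already seen. The arthritic contrast is therefore a description, and its counts and differences carry no test. Of the 18 arrays of non-arthritic mice, 4 (1, 2, 5 and 6) had spike-in values like those of arthritic arrays 1 to 9 and are called the matched non-arthritic arrays. Their difference from the other 14 non-arthritic arrays, which shares no array with the arthritic contrast, was tested to see which differences also ran through mice without arthritis.

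Each array held RNA from the spleen of 1 mouse at 4 months of age. The animals were F2 mice, and the title of the series describes the arthritic ones as deficient for interleukin 1 receptor antagonist, the secreted inhibitor encoded by Il1rn. The purpose given was to look for subpopulations among arthritic mice. The labels give no genotype, strain, sex, arthritis score, treatment or processing date for any mouse, and they separate arthritic arrays 1 to 9 from 10 to 18 by number alone.

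The spleen filters blood through the red pulp, where macrophages take up old red cells and recover their iron. Its white pulp holds B cell follicles and T cell zones, bordered by a marginal zone with macrophages that bind blood-borne sugars. A capsule of collagen, proteoglycans and smooth muscle sends trabeculae into the organ, and in mice the red pulp also makes red cells, platelets and granulocytes. In such bulk tissue, fewer cells of a type and less RNA per cell cannot be told apart.

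Marker genes of spleen cells were well measured: over the 36 arrays the mean log2 level was 14.06 for Slc4a1, the anion exchanger of red cells, 11.65 for Spic, the transcription factor of red pulp macrophages, 11.24 for the B cell kinase Btk and 10.05 for the T cell receptor subunit Cd3e. Median intensity per array was 143 ± 17.4 (SD, n = 9) in the first arthritic set, 130.1 ± 10.2 (SD, n = 9) in the second, 160 ± 15.2 (SD, n = 4) in the matched non-arthritic arrays and 129 ± 5.8 (SD, n = 14) in the others. The highest values were 181.6 for arthritic 1 and 183.2 for non-arthritic 1. Transcripts of the exocrine pancreas, which lies beside the spleen, stood out in arthritic 8 and non-arthritic 5 and 6. Of 18 such genes on the array, only 7 passed the filter. It uses the mean over all 36 arrays, and so favours genes raised by those 3 spleens. Of the 7, 2 were higher in the first arthritic set and all 7 in the matched non-arthritic arrays, against 13.4% and 13.5% of all genes. These counts were partly fixed by the filter and carry no support. The medians of the 7 genes, 0.95 and 2.94, became 0.25 and 0.44 without those 3 spleens.

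The spike-in values that chose the sets separated them without overlap. The log2 signal of the bioB control minus that of the bioC control, both bacterial biotin synthesis genes, lay between -1.47 and -1.29 in the first arthritic set and between -2.22 and -1.69 in the second. It lay between -1.51 and -1.15 in the matched non-arthritic arrays and between -2.04 and -1.63 in the others. At the boundary, the lowest value inside the first arthritic set and its match was -1.51, and the highest outside it was -1.63. Ward clustering of the 18 hybridisation control probe sets into 3 clusters, which used no gene, placed the first arthritic set and the matched non-arthritic arrays together in cluster A, 6 arthritic and 10 non-arthritic arrays in cluster B, and 3 arthritic and 4 non-arthritic arrays in cluster C. Because cluster A holds all of the first set and its match, spike-in cluster and set cannot be told apart within either contrast.

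A measure of RNA quality moved with the same sets. The ratio of the 3 prime to the 5 prime Gapdh control probe sets was 0.741 ± 0.051 (SD, n = 9) in the first arthritic set and 0.968 ± 0.11 (SD, n = 9) in the second. In the matched non-arthritic arrays it was 0.773 ± 0.076 (SD, n = 4) against 0.980 ± 0.085 (SD, n = 14) in the others, a difference of -0.21 (two-sided exact permutation test over 3060 splits, p = 0.00261). The actin ratio was 1.24 ± 0.15 and 1.65 ± 0.45 in the arthritic sets (SD, n = 9 each). In the non-arthritic sets it was 1.36 ± 0.19 (SD, n = 4) and 1.52 ± 0.24 (SD, n = 14), with an exact permutation p of 0.203.

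**Figure D1:**
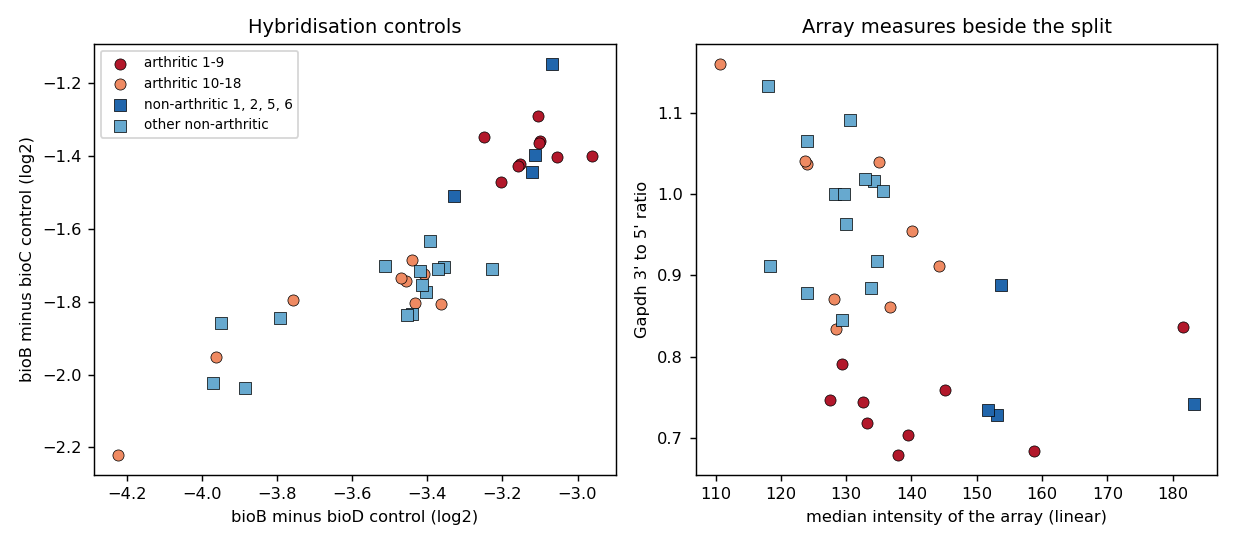
Left: log2 signal of the bioB control minus the bioC control (vertical) against bioB minus bioD (horizontal); right: Gapdh 3 prime to 5 prime ratio against the median linear intensity; each point is 1 of 36 arrays. The 9 arthritic arrays of the first set and the 4 matched non-arthritic arrays lie together at the top right of the left panel, above -1.63, and at Gapdh ratios between 0.679 and 0.888 in the right panel.

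The difference between the arthritic sets was broad. Of 27022 probe sets tested, 8771 passed limma's adjusted threshold of 0.05 in the arthritic contrast, which is 32.5% of those tested, 4646 higher (17.2%) and 4125 lower (15.3%) in arrays 1 to 9. The non-arthritic contrast, tested in the same fit, called 7076 probe sets (26.2%), 4352 higher (16.1%) and 2724 lower (10.1%) in the matched arrays. At an unadjusted p under 0.05 the shares were 42.3% and 38.7%, and 2.88% and 3.33% of probe sets differed by 1 or more on the log2 scale. Quantile normalization turned the arthritic split to 4237 higher and 4530 lower, and the non-arthritic split to 3146 higher and 3371 lower. With the Gapdh ratio as a covariate the counts were 2983 and 3364. Each array is 1 mouse, and the p-values set a difference between sets against the spread of arrays within sets. Because set and spike-in cluster cannot be told apart, the p-values do not cover spread between clusters.

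Much of the arthritic difference ran through the non-arthritic arrays too. Both contrasts called 3961 probe sets in the same direction, 14.7% of the array (8.38% higher, 6.28% lower), which is 45.2% of the arthritic calls and 56.0% of the non-arthritic calls. Opposite calls numbered 17 (0.0629%). Of the 8771 probe sets of the arthritic contrast, 7810 (89.0%) had the same sign in the non-arthritic contrast, against 72.0% of all tested probe sets. The arthritic sets did not overlap for 3.14% of probe sets (1.58% lower in the first set) and the non-arthritic sets for 7.49%. For 400 probe sets (1.48%) neither pair of sets overlapped and both differed in the same direction, while 0 did so in opposite directions. Among 12428 genes, each read from the brightest of its probe sets, 732 (5.89%) were higher and 952 (7.66%) lower in both contrasts, and 69.0% had the same sign.

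Whether any gene's difference was larger or smaller in arthritic than in non-arthritic mice was tested as the arthritic contrast minus the non-arthritic one. limma called 0 of 27022 probe sets (0.0%) at an adjusted p under 0.05, with a lowest adjusted p of 0.0855, and 4369 (16.2%) had an unadjusted p under 0.05. This count rested on the arrays used: it was 461 without non-arthritic 6, 250 without arthritic 1 and 26 without arthritic 13, and 800 when the comparison arrays were those of spike-in cluster B alone. With the comparison arrays of cluster C it was 0, with 1862 at an unadjusted p under 0.05. The median standard error was 0.23 for this test against 0.15 for the arthritic and 0.18 for the non-arthritic contrast.

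Of the 12428 genes, the most negative difference in the arthritic contrast was that of Mfap4, a protein of elastic fibres and collagen in the extracellular matrix. Its log2 level ran from 4.65 to 7.31, median 5.39, in arthritic 1 to 9 and from 7.63 to 9.30, median 8.44, in arthritic 10 to 18. The sets did not overlap, and the difference of -3.08 (SE 0.32) is an 8.47-fold difference. In non-arthritic 1, 2, 5 and 6 it read 4.89, 7.26, 7.0 and 5.15, and in the other 14 arrays from 7.61 to 9.61, median 8.84. These sets did not overlap either: the difference of -2.61 (SE 0.38, limma adjusted p = 5.71e-06) in Mfap4, a 6.1-fold difference, passed under every alternative run, between -3.10 and -1.91. The test of the contrasts against each other gave -0.47 (SE 0.50, limma adjusted p = 0.669).

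Dcn, which encodes decorin, a small proteoglycan that binds collagen fibrils, ran from 9.04 to 10.46, median 9.42, in the first arthritic set and from 10.41 to 11.65, median 10.96, in the second. All but 1 array of the first set lay below the second, a difference of -1.31 (SE 0.26). Non-arthritic 1, 2, 5 and 6 read 11.19, 10.17, 9.44 and 9.77 against 10.19 to 12.23, median 11.25, in the others. Here 3 of the 4 matched arrays lay below all others and non-arthritic 1 lay among them, with a difference of -1.09 (SE 0.31, limma adjusted p = 0.00957). Without the 3 spleens with pancreas transcripts the difference was -0.55 (limma adjusted p = 0.372), and without non-arthritic 5 it was -0.86 (limma adjusted p = 0.0753).

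Other matrix and wall genes followed. Fmod, fibromodulin, a proteoglycan related to decorin, differed by -1.46 (SE 0.17) in the arthritic contrast. The matched non-arthritic arrays read 9.19, 8.74, 8.97 and 8.54, all below the other 14 arrays at 9.47 to 10.92, a difference of -1.20 (SE 0.21, limma adjusted p = 6.35e-05). All 5 other probe sets of Fmod pointed the same way in both contrasts. Dpt, dermatopontin, which binds decorin, differed by -0.86 (SE 0.15) and by -0.85 (SE 0.18, limma adjusted p = 0.000688 in the non-arthritic contrast, 0.0618 without the 3 spleens with pancreas transcripts), and Igfbp7, a secreted protein of blood vessels, went the other way by 0.45 (SE 0.09) and 0.65 (SE 0.11, limma adjusted p = 2.85e-05).

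Of 43 tested genes of capsule and trabecular matrix, 20 were lower and 3 higher in the first arthritic set, with a median difference of -0.28 against -0.0085 over all 12428 genes, of which 18.0% were lower. In the non-arthritic contrast 13 were lower and 3 higher, with a median of -0.27 against 0.029 over all genes, of which 12.9% were lower, and 9 were lower in both. The 13 became 3, and the median -0.09, without the 3 spleens with pancreas transcripts. Lower calls over all 27022 probe sets fell from 2724 to 1447 in that setting. Of 14 smooth muscle contractile genes, 7 were lower and 0 higher in the first arthritic set, and 4 were lower and 0 higher in the non-arthritic contrast, with medians of -0.31 and -0.20. Acta2, smooth muscle actin, fell by 0.53 (SE 0.15, limma adjusted p = 0.0102) in the matched arrays and differed by -0.34 (limma adjusted p = 0.273) without those 3 spleens and by -0.40 (limma adjusted p = 0.0812) without non-arthritic 6, and its other probe set pointed the opposite way, by 0.26. Tpm2, a tropomyosin, differed by -0.89 (SE 0.15, limma adjusted p = 4.22e-05), and 1 of its 2 other probe sets pointed the opposite way. Mylk, on the same list, gave -0.34 and -0.40 (limma adjusted p = 0.00396), but its 2 other probe sets lay between 0.33 and 0.44 in the 2 contrasts. Without the 3 spleens with pancreas transcripts neither Mylk (-0.34, limma adjusted p = 0.105) nor Myh11 (-0.39, limma adjusted p = 0.369) passed in the non-arthritic contrast. Of 10 mesothelium genes, which mark the outer lining of the capsule, 0 passed in the arthritic and 1 in the non-arthritic contrast, Gpm6a with -0.75 (SE 0.24, limma adjusted p = 0.0206), which did not pass without non-arthritic 6 (-0.52, limma adjusted p = 0.15) or 5 (-0.73, limma adjusted p = 0.0581).

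Prg2, the major basic protein of eosinophil granules, had the most positive arthritic difference of the 12428 genes, each read from its brightest probe set. Over all tested probe sets the highest arthritic difference was 3.02. Prg2 ran from 7.27 to 11.03, median 8.59, in arthritic 1 to 9 and from 4.35 to 7.10, median 6.43, in arthritic 10 to 18. The sets did not overlap, and the difference of 2.48 (SE 0.41) is a 5.59-fold difference. Non-arthritic 1, 2, 5 and 6 read 6.74, 7.61, 7.83 and 10.51, and the other arrays 6.18 to 8.54, median 7.18. Only non-arthritic 6, 1 of the spleens with pancreas transcripts, lay above all others, and the difference of 1.08 (SE 0.49, limma adjusted p = 0.0968) did not pass. It was 0.08 (limma adjusted p = 0.942) without the 3 spleens with pancreas transcripts and 1.56 (limma adjusted p = 0.0265) without arthritic 1 and non-arthritic 1. With the Gapdh covariate it was 1.79 (limma adjusted p = 0.0425), and the test between the contrasts gave 1.40 (SE 0.63, limma adjusted p = 0.263).

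The 3 other tested eosinophil genes went in different directions. Ccr3, the eotaxin receptor, differed by 1.82 (SE 0.28) in the arthritic contrast, with 7 of 9 arrays above all of the second set. Non-arthritic 1, 2, 5 and 6 read 8.80, 9.36, 8.36 and 9.47 against 7.19 to 8.58 in the others, a difference of 0.90 (SE 0.33, limma adjusted p = 0.0435) that did not pass without non-arthritic 1, 2 or 6 (limma adjusted p = 0.0683, 0.15 and 0.149). Il5ra, the interleukin 5 receptor, and Prg3, a second granule protein, gave -0.32 (SE 0.27) and -0.50 (SE 0.45) in the arthritic contrast, and 0.28 (SE 0.33, limma adjusted p = 0.560) and -0.67 (SE 0.55, limma adjusted p = 0.378) in the non-arthritic one.

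Cd209b, the C-type lectin SIGN-R1 of marginal zone macrophages, was higher in the first set and its match. Its level ran from 8.16 to 10.60, median 9.23, in arthritic 1 to 9 and from 6.85 to 8.73, median 7.98, in arthritic 10 to 18, so that 6 of 9 arrays lay above the second set, by 1.21 on average (SE 0.28). Non-arthritic 1, 2, 5 and 6 read 8.62, 10.02, 10.02 and 9.32, all above the others at 6.81 to 8.36, median 7.63. That difference of 1.89 (SE 0.34, limma adjusted p = 8.7e-05), a 3.7-fold difference, passed under every alternative run, and the second Cd209b probe set gave 1.80. The test between the contrasts gave -0.68 (SE 0.44, limma adjusted p = 0.447).

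**Figure D2:**
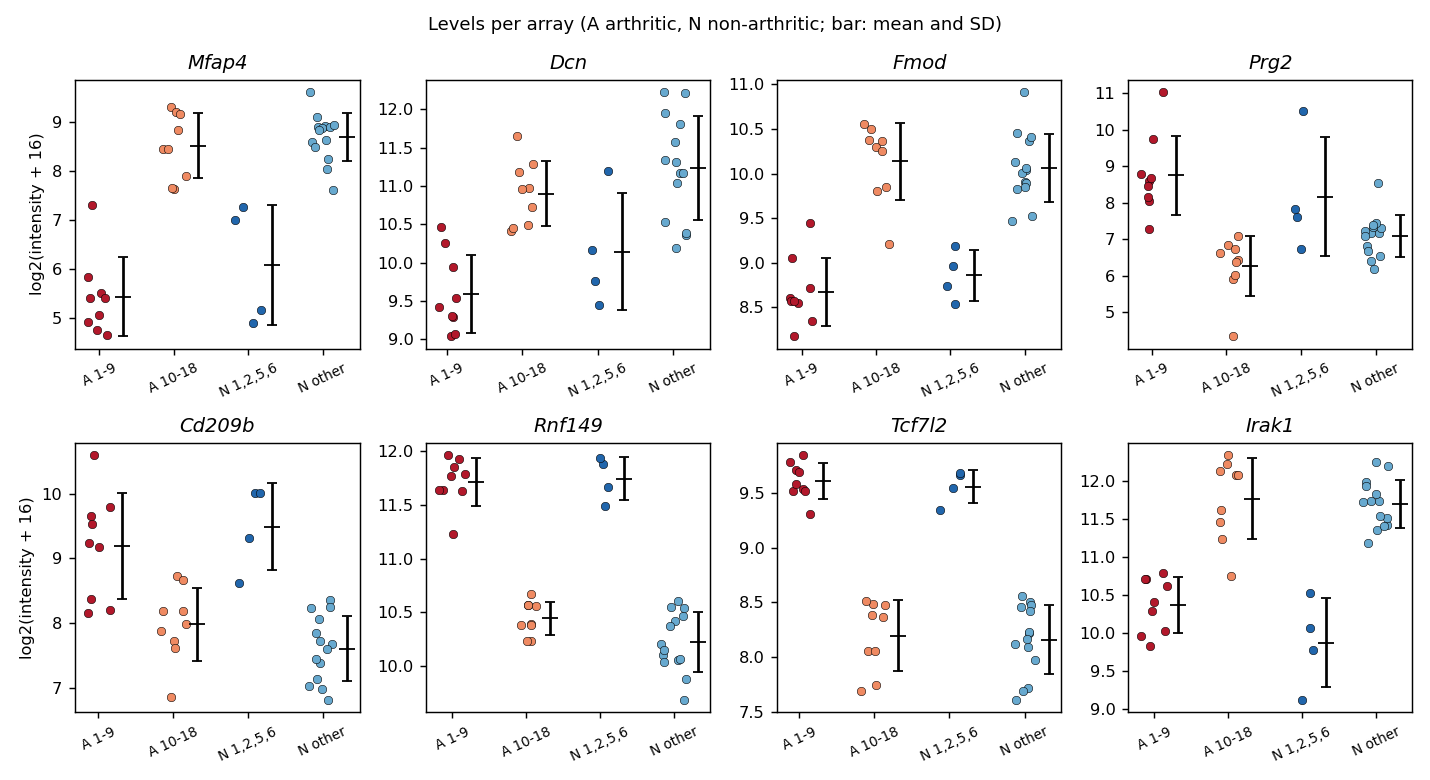
Level on the log2(intensity + 16) scale of 8 genes in each of the 36 arrays, by set (A arthritic, N non-arthritic), with the mean and SD beside the points. Mfap4, Dcn, Fmod and Irak1 sit low, and Cd209b, Rnf149 and Tcf7l2 high, in arthritic 1 to 9 and in non-arthritic 1, 2, 5 and 6. Exceptions are Dcn, which in non-arthritic 1 lies among the other non-arthritic arrays, and Prg2, which is above them in only 1 of the 4.

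Of the genes past the threshold in both contrasts, those are named whose smaller difference was largest. Higher in both were Rnf149, a membrane-bound ubiquitin ligase, and Tcf7l2, a transcription factor of the Wnt pathway. Rnf149 read 11.23 to 11.96 in arthritic 1 to 9 and 10.23 to 10.67 in arthritic 10 to 18, then 11.49, 11.89, 11.67 and 11.94 in non-arthritic 1, 2, 5 and 6 and 9.69 to 10.61 in the others. Neither pair of sets overlapped, and the differences were 1.27 (SE 0.11) and 1.52 (SE 0.13, limma adjusted p = 1.36e-10 in the non-arthritic contrast). Tcf7l2 likewise did not overlap in either pair, with differences of 1.42 (SE 0.13) and 1.40 (SE 0.16, limma adjusted p = 5.45e-08), although only 1 of its 3 other probe sets was positive in the non-arthritic contrast.

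Dimmer genes of this group were Gper1, a membrane estrogen receptor, with 1.53 (SE 0.38) and 1.97 (SE 0.45), Sectm1a, a secreted and transmembrane protein, with 1.35 (SE 0.27) and 1.22 (SE 0.32), and the uncharacterised gene 4933427D06Rik with 1.25 (SE 0.28) and 1.48 (SE 0.33). All 4 matched non-arthritic arrays lay above the other 14 for each of these 3 genes, although Sectm1a did not pass with the Gapdh covariate (1.07, limma adjusted p = 0.0738). For Lce1i, a late cornified envelope protein, the differences of 1.71 and 1.70 leaned on arthritic 1 at 10.67 and non-arthritic 1 at 10.70. Without non-arthritic 1 the second was 1.13 (limma adjusted p = 0.142). For Cela3b, a pancreatic elastase, non-arthritic 5 and 6 read 13.36 and 11.51 while 1 and 2 read 7.84 and 8.52, and the difference of 2.94 (SE 0.62, limma adjusted p = 0.000568) was 0.82 (limma adjusted p = 0.0847) without the 3 spleens with pancreas transcripts.

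Lower in both were Irak1, the kinase that carries signals from the interleukin 1 receptor and Toll-like receptors, and Zfhx3, a zinc finger homeobox factor. Irak1 ran from 9.82 to 10.79 in arthritic 1 to 9 and from 10.75 to 12.34 in arthritic 10 to 18, a difference of -1.40 (SE 0.19). Non-arthritic 1, 2, 5 and 6 read 10.52, 10.07, 9.78 and 9.13, all below the others at 11.19 to 12.25, a difference of -1.83 (SE 0.22, limma adjusted p = 3.81e-07). The 3 other Irak1 probe sets lay between -0.88 and -0.15 in the arthritic contrast and between -0.59 and 0.28 in the non-arthritic one, so they do not all show it.

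Zfhx3 gave -1.46 (SE 0.17) and -1.25 (SE 0.20, limma adjusted p = 2.75e-05), with all 3 other probe sets negative in both. Cep295, a centriole protein, gave -1.16 (SE 0.14) and -1.29 (SE 0.17), Irf2bpl, a transcription factor, -1.18 (SE 0.14) and -1.11 (SE 0.16), and Itgb3, the platelet integrin, -1.18 (SE 0.25) and -1.60 (SE 0.30). Each of these 3 genes has 1 other probe set, and it took the opposite sign in 1 contrast, at 0.24, 0.15 and 0.67 respectively. Aoc3, an amine oxidase of vessel walls, gave -1.30 (SE 0.28) and -1.38 (SE 0.33, limma adjusted p = 0.00246), and -0.67 (limma adjusted p = 0.28) in the non-arthritic contrast without the 3 spleens with pancreas transcripts.

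Red pulp macrophage genes were the list most often higher in the first arthritic set, 13 of 16 tested with 1 lower, against 13.4% of all genes higher, and their median was 0.86. In the non-arthritic contrast 7 of the 16 were higher and 0 lower, against 13.5% of all genes higher, with a median of 0.39, and all 16 had a positive sign. Spic read 11.76, 12.58, 12.24 and 12.22 in non-arthritic 1, 2, 5 and 6 against 10.94 to 11.66 in the others, without overlap, a difference of 0.84 (SE 0.18, limma adjusted p = 0.000582). Treml4, a receptor of splenic macrophages, differed by 0.90 (SE 0.16, limma adjusted p = 7.88e-05), and Adgre1, the macrophage surface marker, by 0.75 (SE 0.15, limma adjusted p = 0.000468), or 0.58 (limma adjusted p = 0.0559) without the 3 spleens with pancreas transcripts. In the arthritic contrast the same 3 genes differed by 1.02, 1.12 and 1.11, with 8 of 9 arrays of the first set above all of the second. The 1 lower gene, Timd4, a receptor for dying cells, gave -0.46 and 0.40, and the 7 became 2 without the 3 spleens with pancreas transcripts, with the median at 0.37. Higher calls over all 27022 probe sets fell from 4352 to 2199 in that setting.

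Of 17 endothelium and sinusoid genes, 7 were higher and 1 lower in the arthritic contrast, and 6 higher and 1 lower in the non-arthritic one, with 5 higher in both and medians of 0.24 and 0.37. Over all genes 13.4% were higher and 18.0% lower in the arthritic contrast, and 13.5% and 12.9% in the non-arthritic one. Tek, the angiopoietin receptor, read 9.03, 9.09, 9.24 and 8.60 in the matched arrays against 7.71 to 8.54, a difference of 0.93 (SE 0.16, limma adjusted p = 7.5e-05). Of 14 cytotoxic and natural killer genes, 9 and 8 were higher, 0 were lower in either contrast, and 7 were higher in both, with medians of 0.52 and 0.64, against 5.89% of all genes higher in both. Prf1, the pore-forming protein of killer cells, read 8.97, 9.38, 8.94 and 8.11 in non-arthritic 1, 2, 5 and 6, above 7.0 to 7.99 in the others, by 1.25 (SE 0.21, limma adjusted p = 5.45e-05), and by 0.83 (SE 0.18) in the arthritic contrast. Klrk1, an activating receptor of killer cells, differed by 1.22 (SE 0.21) and 1.05 (SE 0.26, limma adjusted p = 0.0028), the second 0.73 (limma adjusted p = 0.123) with the Gapdh covariate.

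Of 13 marginal zone genes, 6 were higher and 3 lower in the arthritic contrast, where 13.4% of all genes were higher and 18.0% lower. In the non-arthritic contrast 6 were higher and 1 lower, against 13.5% and 12.9% of all genes. Marco, a scavenger receptor of marginal zone macrophages, read 11.94 and 11.81 in non-arthritic 2 and 5, above the other 14 arrays at 9.58 to 11.28, while non-arthritic 1 and 6 lay within that range, a difference of 1.02 (SE 0.26, limma adjusted p = 0.00324), with 0.40 (SE 0.21) in the arthritic contrast. Tm6sf1, a lysosomal membrane protein on that list, did not overlap in either pair, at 0.49 (SE 0.08) and 0.91 (SE 0.10, limma adjusted p = 3.39e-08).

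Of 14 dendritic cell genes, 2 were higher and 4 lower in the arthritic contrast, and 3 higher and 0 lower in the non-arthritic one. The share of 2 of 14 is near the 13.4% of all genes higher in the arthritic contrast, and in the non-arthritic one 13.5% of all genes were higher. Of all genes, 18.0% were lower in the arthritic contrast. There 11 of the 14 were negative and 3 positive, with a median of -0.20. In the non-arthritic contrast 4 were negative and 10 positive, with a median of 0.17. Xcr1 and Siglech, higher in both contrasts, therefore do not stand for the list in the arthritic one. Xcr1, the chemokine receptor of cross-presenting dendritic cells, read 8.21, 8.63, 8.76 and 8.14 in the matched arrays, above 6.52 to 7.95 in the others, by 1.36 (SE 0.23, limma adjusted p = 6.17e-05), and by 1.20 (SE 0.20) in the arthritic contrast. Siglech, a receptor of plasmacytoid dendritic cells, read 8.53, 9.49, 9.42 and 8.72 against 6.08 to 8.27. Its differences were 1.85 (SE 0.25, limma adjusted p = 1.62e-06) and, in the arthritic contrast, 0.77 (SE 0.21), and the test between them gave -1.08 (SE 0.32, limma adjusted p = 0.126).

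Of 16 T cell genes, 10 were lower and 0 higher in the first arthritic set, against 18.0% of all genes lower, with a median of -0.52. In the non-arthritic contrast 3 were lower and 0 higher, a share near the 12.9% of all genes lower, with a median of -0.13. The 3 were Cd3e with -0.70 (SE 0.17, limma adjusted p = 0.00253), where all 4 matched arrays, between 9.66 and 9.88, lay below the others, Bcl11b, a T cell transcription factor, with -0.78 (SE 0.20, limma adjusted p = 0.00324), and Cd3d with -0.42 (SE 0.15, limma adjusted p = 0.0438), which was -0.26 (limma adjusted p = 0.253) without non-arthritic 6 and also lost the threshold without several other arrays. With the Gapdh covariate Cd3e was -0.52 (limma adjusted p = 0.0982). Of 17 B cell genes, 11 were lower and 0 higher in the arthritic contrast, median -0.32, and 2 were lower and 4 higher in the non-arthritic one, median 0.13. The 2 lower are near the share over all genes, 12.9%, and 13.5% of all genes were higher. Btk was lower in both contrasts, by -0.40 in the arthritic and -0.38 (limma adjusted p = 0.00105) in the non-arthritic one. Without the 3 spleens with pancreas transcripts the latter was -0.31 (limma adjusted p = 0.0644). Ly6d, an early B lineage surface protein, read 12.23, 11.21, 12.40 and 11.44 in the matched arrays against 9.74 to 12.32, a difference of 1.38 (SE 0.39, limma adjusted p = 0.00782; 1.28 and 0.099 without the 3 spleens with pancreas transcripts), and -0.42 (SE 0.32) in the arthritic contrast. The test between its contrasts gave -1.80 (SE 0.50, limma adjusted p = 0.109).

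**Figure D3:**
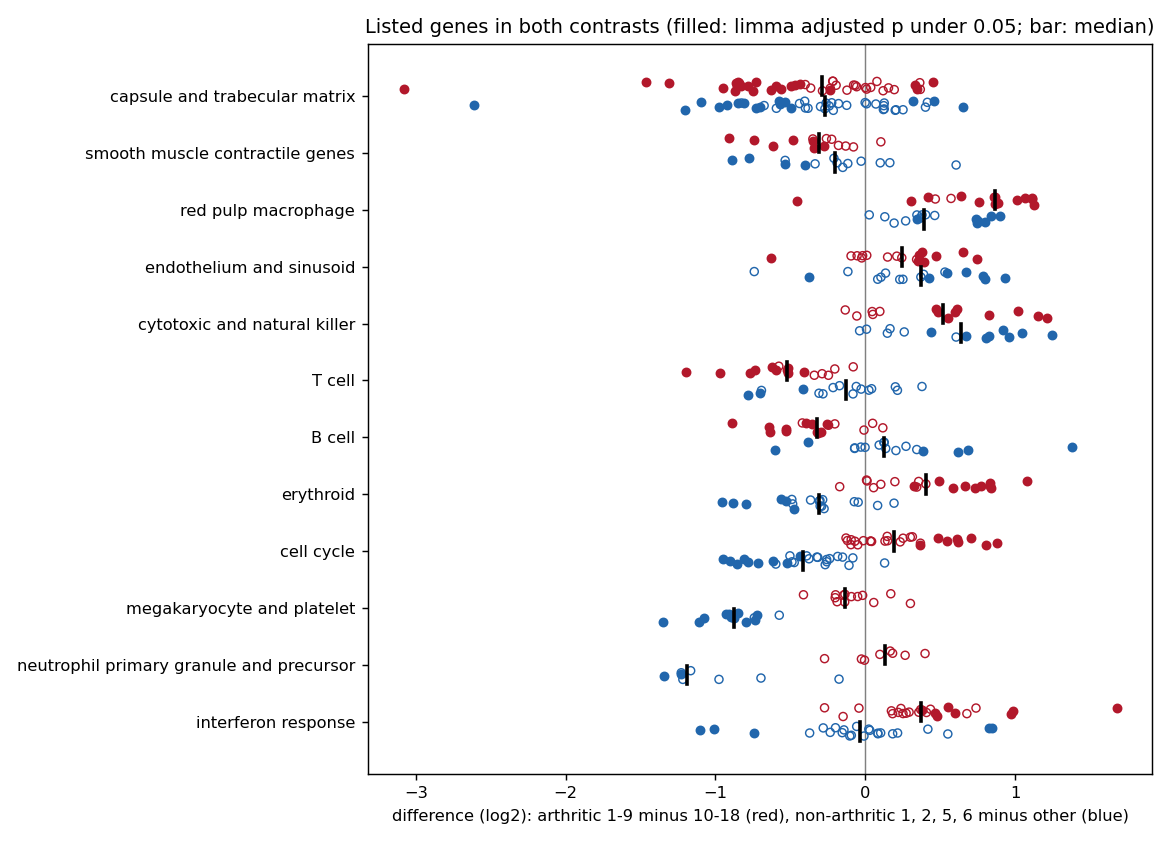
Log2 difference of every tested member of 12 gene lists in the arthritic contrast (red) and the non-arthritic contrast (blue), filled where limma's adjusted p was under 0.05, with a bar at each median. The medians of matrix, smooth muscle, macrophage, endothelial and killer cell lists lie on the same side of 0 in both, though single members lie on either side. Medians lie on opposite sides for erythroid (0.41 and -0.31), cell cycle (0.19 and -0.41), B cell (-0.32 and 0.13), interferon (0.38 and -0.03) and primary granule genes (0.13 and -1.19).

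The list medians of erythroid, cell cycle and primary granule genes had opposite signs in the 2 contrasts. Of 19 erythroid genes, 10 were higher and 0 lower in the first arthritic set, and 0 higher and 6 lower in the matched non-arthritic arrays. Of 26 cell cycle genes, 8 were higher and 0 lower, then 0 higher and 9 lower. Of 13 megakaryocyte and platelet genes, 0 passed in the arthritic contrast (median -0.14) and 11 were lower in the non-arthritic one (median -0.87). Of 8 neutrophil primary granule genes, 0 and then 2 passed, both lower, with medians of 0.13 and -1.19. Over all genes 13.4% were higher and 18.0% lower in the arthritic contrast, and 13.5% higher and 12.9% lower in the non-arthritic one. No member of these lists passed the test between the contrasts with all arrays.

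Gata1, the transcription factor of red cell and platelet precursors, read 10.77, 10.52, 10.26 and 11.62 in non-arthritic 1, 2, 5 and 6 against 11.26 to 12.42 in the others. Its 3 lowest were below all others, a difference of -0.95 (SE 0.24, limma adjusted p = 0.00326), against 0.06 (SE 0.20) in the arthritic contrast. Mcm5, a subunit of the replicative helicase, differed by -0.81 (SE 0.14, limma adjusted p = 6.87e-05) and -0.07 (SE 0.12), and Cdc20, which activates the anaphase-promoting complex, by -0.91 (SE 0.17, limma adjusted p = 0.000138) and -0.09 (SE 0.14). For each of these genes non-arthritic 6 was the highest of the 4. The other probe sets of Mcm5 and Cdc20 were lower in the non-arthritic contrast as well, but positive in the arthritic one, up to 0.62. For Slc4a1 the brightest probe set gave 0.0092 in the arthritic contrast, and its 2 others gave -0.18 and 2.91. For Tfrc the brightest gave 0.10 there, and its 2 others gave 1.66 and 2.19. In the non-arthritic contrast those others lay between -0.46 and 0.04 for Slc4a1 and between -0.003 and 0.25 for Tfrc. The tests between the contrasts gave 1.01 (SE 0.31, limma adjusted p = 0.133) for Gata1, 0.74 (SE 0.18, limma adjusted p = 0.109) for Mcm5 and 0.81 (SE 0.22, limma adjusted p = 0.109) for Cdc20.

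Gp9, a subunit of the platelet receptor for von Willebrand factor, read 9.28, 9.44, 9.33 and 10.59 in the matched arrays against 9.43 to 11.39, a difference of -1.11 (SE 0.29, limma adjusted p = 0.0043), and 0.06 (SE 0.24) in the arthritic contrast. Mpo, the peroxidase of neutrophil granules, read 10.43, 11.03, 10.64 and 13.27 against 11.13 to 14.21, a difference of -1.34 (SE 0.47, limma adjusted p = 0.0327). It did not pass without non-arthritic 1, 2 or 5 (limma adjusted p = 0.161, 0.103 and 0.134), and with the Gapdh covariate neither Gp9 (-0.71, limma adjusted p = 0.175) nor Gata1 (-0.81, limma adjusted p = 0.0702) did. Non-arthritic 6 lay well inside the range of the other 14 arrays for both Gp9 and Mpo.

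These opposite sides depended on which arrays stood on the other side of the comparison. Against the 6 arthritic arrays of spike-in cluster B the erythroid median was 0.79 and against the 3 of cluster C it was -0.10. The cell cycle median was 0.43 and -0.18, and the neutrophil primary granule median 0.54 and -0.66. In the non-arthritic contrast the same medians kept 1 sign: -0.27 and -0.47 for erythroid, -0.37 and -0.54 for cell cycle, -1.23 and -1.08 for primary granule genes. With cluster B arrays 800 of 27022 probe sets passed the test between the contrasts, 413 positive and 387 negative. Among the positive ones were 13 of 26 cell cycle and 10 of 19 erythroid genes, each read from its brightest probe set. The 413 of 27022 counts probe sets rather than genes, so it is not a like background. The share over genes is not given for this setting. With cluster C arrays 0 passed.

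Interferon and heat shock genes were counted in both directions. Of 24 interferon response genes, 8 were higher and 0 lower in the first arthritic set, median 0.38, and 2 were higher and 3 lower in the non-arthritic contrast, median -0.03. The first count stands against 13.4% of all genes higher, while the non-arthritic counts are at or below the shares over all genes, 13.5% higher and 12.9% lower. Oas3, an antiviral oligoadenylate synthetase, read 6.82, 7.88, 7.77 and 9.13 in the matched arrays against 8.12 to 10.02, a difference of -1.10 (SE 0.37, limma adjusted p = 0.0269), which was -0.74 (limma adjusted p = 0.196) without non-arthritic 1 and also did not pass without 2 or 5 (limma adjusted p = 0.0691 and 0.0732). Its arthritic difference was 0.68 (SE 0.31). Stat2, which carries interferon signals to the nucleus, was instead higher in both, by 0.60 (SE 0.12) and 0.82 (SE 0.14, limma adjusted p = 4.22e-05).

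Of 18 heat shock chaperone genes, 0 were higher and 6 lower in the first arthritic set, and 4 higher and 1 lower in the matched non-arthritic arrays. Of all genes, 18.0% were lower in the arthritic and 13.5% higher in the non-arthritic contrast. Hspa1a, the inducible chaperone of the Hsp70 family, read 10.05, 11.02, 11.10 and 9.70 in non-arthritic 1, 2, 5 and 6 against 7.12 to 9.74 in the others, a difference of 1.95 (SE 0.55, limma adjusted p = 0.0079; 2.02 and 0.0647 without the 3 spleens with pancreas transcripts), and -0.99 (SE 0.45) in the arthritic contrast. Its close copy Hspa1b, named after its values were seen as 1 of the 17 probe sets called in opposite directions, averaged 9.84 ± 1.13 (SD, n = 9) and 11.35 ± 1.64 (SD, n = 9) in the arthritic sets, and 12.32 ± 0.81 (SD, n = 4) and 10.57 ± 1.02 (SD, n = 14) in the non-arthritic sets. The tests between the contrasts gave -2.94 (SE 0.71) and -3.26 (SE 0.83), each with a limma adjusted p of 0.109. The 2 genes are near-identical copies, and what each probe set reads of the other was not tested.

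Il1rn itself gave a low signal. Its level ran from 5.98 to 7.48, median 6.76, in arthritic 1 to 9 and from 4.84 to 7.02, median 6.53, in arthritic 10 to 18, overlapping sets with a difference of 0.55 (SE 0.25). Non-arthritic 1, 2, 5 and 6 read 7.62, 6.70, 7.38 and 7.12 against 5.44 to 6.97, a difference of 0.88 (SE 0.30, limma adjusted p = 0.0258) that did not pass after quantile normalization (0.58, limma adjusted p = 0.12) or without non-arthritic 1 (0.74, limma adjusted p = 0.11) or 5 (0.82, limma adjusted p = 0.0799). Of 22 interleukin 1 family and signalling genes, 5 were higher and 3 lower in the arthritic contrast, and 6 higher and 3 lower in the non-arthritic one, with 3 in each direction in both. Over all genes the shares were 13.4% higher and 18.0% lower, then 13.5% and 12.9%, so the counts of lower genes are near the background. Il1b, the cytokine itself, was higher by 0.83 (SE 0.18) and by 1.00 (SE 0.22, limma adjusted p = 0.000932), where it read 10.81, 11.61, 11.30 and 11.19 against 9.56 to 11.11, and by 0.76 (limma adjusted p = 0.0593) with the Gapdh covariate. Il18, a related cytokine, was higher by 0.67 (SE 0.10) and by 0.58 (SE 0.12, limma adjusted p = 0.000701), with all 4 matched arrays above the others.

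Of 30 proteasome genes, 6 were higher and 4 lower in the arthritic contrast, and 1 higher and 13 lower in the non-arthritic one. The arthritic counts are near the shares over all genes, 13.4% higher and 18.0% lower, and in the non-arthritic contrast 12.9% of all genes were lower. Psmb1, a core subunit, did not overlap in either pair, at 11.70 to 12.08 against 12.27 to 12.62 in the arthritic sets and at 11.75, 11.78, 11.90 and 11.80 against 12.30 to 12.73 in the non-arthritic sets, differences of -0.48 (SE 0.06) and -0.65 (SE 0.07, limma adjusted p = 8.47e-08). Of its 2 other probe sets, 1 gave 0.36 in the non-arthritic contrast. Of 33 oxidative phosphorylation genes, 11 were higher and 5 lower, then 2 higher and 9 lower, against the same shares and 13.5% of all genes higher in the non-arthritic contrast. Of 26 ribosomal protein genes, 1 was lower in the arthritic and 0 passed in the non-arthritic contrast by limma, with medians of -0.11 and 0.0025, and 3 were higher and 3 lower in the latter after quantile normalization.

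The genes nearest to a difference between the contrasts were not past the threshold. The highest moderated t belonged to Rbm43, an RNA-binding protein, at 0.64 (SE 0.13, limma adjusted p = 0.0855), Fcgr4, an activating Fc receptor of myeloid cells, at 1.16 (SE 0.26), and Mrpl49, Tab3 and Hagh, at 0.56, 0.96 and 0.92, each of the last 4 with a limma adjusted p of 0.109. Fcgr4 ran from 9.16 to 10.46 in arthritic 1 to 9 and from 8.12 to 9.38 in arthritic 10 to 18, while non-arthritic 1, 2, 5 and 6 at 8.72, 9.0, 8.65 and 9.40 lay inside the range of the others, 8.63 to 9.53. The lowest belonged to Jmjd6, a hydroxylase, at -0.81 (SE 0.16, limma adjusted p = 0.0855), and to Eif4g3, Inpp5f, Sh2b2 and Lacc1, at -0.48, -0.59, -0.92 and -0.76, each with a limma adjusted p of 0.109. Jmjd6 read 9.88 to 10.21 in the matched arrays, above 9.02 to 9.74 in the others, while the arthritic sets overlapped, at 9.09 to 9.97 and 9.22 to 9.79. Other probe sets of Jmjd6, Inpp5f and Mrpl49 took the opposite sign in at least 1 contrast. With cluster B comparison arrays all 10 passed, and with cluster C arrays 0 of them did.

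Probe sets of one gene often disagreed. Of 2766 genes with probe sets called in both contrasts with the same sign, 540 had 2 or more such probe sets, and in 176 of these (32.6%) 1 probe set was higher and another lower. For Fndc3a, 1 probe set was higher by 1.12 (SE 0.19) and 0.89 (SE 0.23) in the arthritic and non-arthritic contrasts, and another lower, at -0.74 (SE 0.21) and -0.91 (SE 0.25). For Tnks2, a tankyrase, the values were 1.19 (SE 0.24) and 0.92 (SE 0.29) against -0.76 (SE 0.10) and -0.69 (SE 0.12). For Igfbp4, which binds insulin-like growth factors, they were 1.16 (SE 0.22) and 0.79 (SE 0.27) against -1.35 (SE 0.20) and -0.66 (SE 0.23). The opposite pairs kept their direction from arthritic to non-arthritic arrays, which the choice of probe sets called alike in both fixes. Where probe sets disagree in this way, a gene's direction is that of the probe set with the highest mean.

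**Figure D4:**
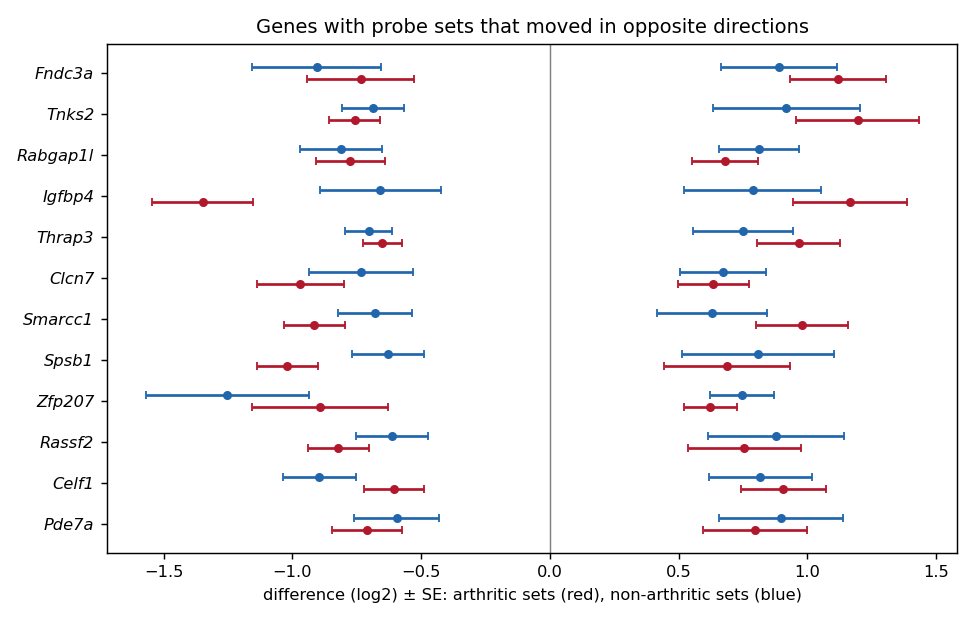
Log2 difference ± SE in the arthritic (red) and non-arthritic (blue) contrast for the 12 genes with the strongest opposite pairs of probe sets. For each gene 1 probe set lies right of 0 and another left of 0 in both contrasts, as for Fndc3a at 1.12 and -0.74.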

How the data were processed

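Total RNA of single spleens, extracted with Trizol, was biotin-labelled for Affymetrix mouse arrays, per the labels' protocols. The deposited values are linear intensity, and per the submitters' processing notes the authors used MAS5. Its version is not stated there. After trimming 2% at each end, the mean was 500.0 on each array. The number of arrays limits the precision.

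Values were analysed as log2(value + 16), which understates changes of dim probe sets. The 64 control probe sets were left out, and 27022 of 45037 probe sets had a mean at or above the 40th percentile. The platform annotation names 1 gene for 34945 probe sets, several for 932 and none listed for 9160, and 34741 matched the reference table. limma 3.58.1 in R 4.3.3 fitted 4 group means on 36 arrays (eBayes with trend, two-sided, adjusted by Benjamini-Hochberg across the 27022 probe sets, with a threshold of 0.05), and the fit was tested on simulated data.

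Members, sets and lists were chosen with earlier results of these data known. Genes named are Mfap4, Prg2, Cd209b, Dcn and Il1rn, the 8 highest and 8 lowest shared genes, the 5 highest and 5 lowest for the difference of the contrasts, and up to 4 members per list with the smallest p in the non-arthritic contrast. Timd4, Hspa1b and the genes with opposite probe sets were added after their values were seen. Alternatives covered pseudocount, filter, normalization, variance prior, separate fits, Gapdh covariate, rank test, threshold, replicate block, spike-in clusters, spleens with pancreas transcripts and each array left out. Leaving out arthritic 1 and non-arthritic 1 together was chosen after seeing the data.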

Additional observations from a re-analysis of the deposited data

Results flagged for a closer look

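For 29 genes, the arrays of each of 3 groups of 4 to 10 were searched for a value far from the rest, and 11 of 87 pairs of gene and group had one, where chance gives about 1 in 20. On the log2 scale, in the second arthritic set, Cep295 read 8.13 in arthritic 14 against a group median of 9.04. Hagh read 10.82 in arthritic 18 against 11.54, and Itgb3 9.83 in the same array against 11.50. Irf2bpl read 10.10 in arthritic 13 against 10.84, Mrpl49 9.74 in arthritic 17 against 9.39, and Prg2 4.35 in arthritic 15 against 6.43. In the first arthritic set, Cela3b read 12.69 in arthritic 8 against 8.43, and Mfap4 7.31 in arthritic 2 against 5.39. Lce1i read 10.67 in arthritic 1 against 7.95, and Rnf149 11.23 in the same array against 11.77. Among the matched non-arthritic arrays, Cep295 read 7.01 in non-arthritic 2 against 7.99.

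Of the array measures, the Gapdh ratio of non-arthritic 6 was 0.888 against a median of 0.739 in its group. The actin ratio was 2.74 in arthritic 14 against 1.55, and 1.62 in arthritic 1 against 1.20. Median intensity was 183.2 in non-arthritic 1 against 153.4.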

How the results depend on the processing

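In the arthritic contrast, 8771 probe sets became 2983 with the Gapdh ratio as a covariate, 3351 with comparison arrays of spike-in cluster C and 5618 at an adjusted threshold of 0.01. In the non-arthritic contrast, 7076 became 3364 with the Gapdh covariate, 3646 without the 3 spleens with pancreas transcripts and 3797 at 0.01. The 3961 shared probe sets became 1354 with the Gapdh covariate, 2216 without those 3 spleens, 1973 with cluster C and 2109 at 0.01. The difference between the contrasts gave 1 without a filter, where 45037 probe sets were tested, and 800 with cluster B. With 1 array left out in turn, the counts ran from 7998 to 9407, from 4711 (without non-arthritic 2) to 7384, from 2875 (without non-arthritic 2) to 4025 and, for the difference, from 0 to 461. Deviations of same-numbered arthritic and non-arthritic arrays from their group means were weakly correlated in most pairs (from -0.137 to 0.371 over 18 pairs, median 0.0632, 5 over 0.1). Whether some pairs deviated together was not tested. With the replicate block the counts were 3786, 1127 and 901, and 0 for the difference. In that fit array number is a fixed effect, so both contrasts are built from differences between same-numbered arthritic and non-arthritic arrays. The 2 contrasts then share arrays, and their shared calls are not from separate arrays. Rank-sum tests called 7758, 5448 and 2981. Of 215 results of named genes past the threshold, 2 changed sign: Ly75 in the arthritic contrast was 0.092 with cluster C, and Klf2 was -0.17 with the replicate block. Arthritic differences not past the threshold also changed sign, among them Gata1 (-0.48) and Oas3 (-0.031) with cluster C, Mpo (0.41) with cluster B, and Ly6d (0.13) and Jmjd6 (0.034) with the Gapdh covariate. Of 2766 values of those 215 results under other settings, 2329 kept direction and threshold and 435 lost the threshold. Causes were not tested.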

Other observations

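Some lists not described above held genes that differed in the matched non-arthritic arrays. Their counts stand against 13.4% of all genes higher and 18.0% lower in the arthritic contrast, and 13.5% higher and 12.9% lower in the non-arthritic one. Of 21 hypoxia and glycolysis genes, 2 were higher and 6 lower there, and 1 higher and 5 lower in the first arthritic set, where the share lower is near that of all genes. Pgk1, a glycolytic kinase, read 11.92, 11.89, 11.91 and 12.10 in non-arthritic 1, 2, 5 and 6, all below the others at 12.28 to 12.86, a difference of -0.57 (SE 0.10, limma adjusted p = 5.05e-05), with -0.50 (SE 0.08) in the arthritic contrast. Vegfa, the vascular growth factor, went the other way by 0.93 (SE 0.19, limma adjusted p = 0.000404), with 0.24 (SE 0.16) in the arthritic contrast. Of 19 genes of the TNF and NF-kappaB pathway, 1 was higher and 7 lower in the arthritic contrast, and 4 higher and 2 lower in the non-arthritic one. Ltbr, the lymphotoxin receptor, read 9.43, 9.94, 9.46 and 9.81 against 8.58 to 9.19, without overlap, and was higher by 0.80 (SE 0.11, limma adjusted p = 2.82e-06), with 0.54 (SE 0.09) in the arthritic contrast.

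Of 30 splicing factors and RNA-binding proteins, 1 was higher and 9 lower in the arthritic contrast, 4 higher and 6 lower in the non-arthritic one, and 5 lower in both. Of 14 complement genes, 4 were higher and 3 lower, then 2 higher and 0 lower, where the 2 are near the share of all genes higher. Cfp, properdin, was higher by 0.71 (SE 0.12) and by 0.74 (SE 0.14, limma adjusted p = 0.000257), while its other probe set gave -0.23 in the arthritic contrast. Of 19 immediate early genes, 4 were higher and 8 lower, then 4 higher and 2 lower. Egr1, an early response transcription factor, differed by -1.19 (SE 0.13) and by -0.68 (SE 0.15, limma adjusted p = 0.0013), while Fos, a subunit of AP-1, gave 0.56 (SE 0.21) and 0.77 (SE 0.26, limma adjusted p = 0.0243). Without non-arthritic 2 Fos was 0.57 (limma adjusted p = 0.158), and without the 3 spleens with pancreas transcripts Egr1 was -0.49 (limma adjusted p = 0.107). Of 14 circadian clock genes, 1 was lower in the arthritic and 2 were higher in the non-arthritic contrast, counts below and near the shares over all genes. The 2 were Per2, by 0.75 (SE 0.26, limma adjusted p = 0.0301), and Per3, by 0.66 (SE 0.20, limma adjusted p = 0.0147). Without non-arthritic 1 neither of them passed (limma adjusted p = 0.106 and 0.11). The time of day at which spleens were taken is not given in the labels.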
